A study of Ovis aries with 32 samples.

Results

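The long-chain acyl-CoA synthetase family is described here by the genes listed under the names ACSL1, ACSL3, ACSL4, ACSL5 and ACSL6. The members were taken by name from the deposited table, whatever their values. Of the 5 names, 4 are in the table, each with 1 gene identifier, out of 21271 genes, and together they have 11 of the 35219 transcripts. ACSL6 was not analysed here. ACSL1 has 5 transcripts, ACSL5 has 4, and ACSL3 and ACSL4 have 1 each.

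Long-chain acyl-CoA synthetases join a free fatty acid to coenzyme A with the use of ATP, and the acyl-CoA they make is the form in which fatty acids enter triglyceride and phospholipid synthesis, beta-oxidation and protein acylation. The family members differ in the fatty acids they prefer and in the membranes they sit on. ACSL1 is the major long-chain synthetase of fat tissue and a known target of the nuclear receptor PPARG, and it is induced when preadipocytes become adipocytes.

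RNA was sequenced from perirenal preadipocytes of near-term sheep fetuses and from cells differentiated from them in culture to mature adipocytes. The fetuses were singletons of Columbia-Rambouillet crossbred ewes. Growth-restricted (FGR) fetuses came from ewes exposed to heat during pregnancy, which produces placental insufficiency, and control fetuses came from ewes kept at normal temperature and pair-fed to the heated ewes. The 32 libraries form 8 groups of 4. The preadipocyte groups are control males (MC), control females (FC), growth-restricted males (MFGR) and growth-restricted females (FFGR). The corresponding differentiated groups are MCD, FCD, MFGRD and FFGRD. The labels do not say whether the 4 libraries of a group come from separate animals or cultures, so the p-values measure the spread between these libraries, which may be technical. Values are normalized reads. The value of a gene is the sum over its transcripts, and each fold change was taken on log2(value + 1). A gene was called at an adjusted p-value (limma, Benjamini-Hochberg over all genes of the fit) below 0.05 with a fold change above 1.5.

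The libraries held approximately 7.76 to 21.3 M reads (median 13.5 M), and 1 read was worth 0.695 to 1.785 normalized reads. In 9 libraries the values fell steeply with the genomic span of the transcript (MCD 2 and 4, MFGR 1, MFGRD 1, FC 2, FCD 2, FFGR 2 and 3, FFGRD 3), and the results are given without these where that matters. Of 6 adipocyte marker genes, 5 were in the table, and their summed value ranged from 62.5 to 1375 in the 16 preadipocyte libraries and from 308.7 to 181132 in the 16 differentiated libraries. The adipokine ADIPOQ had a median of 11.7 in preadipocytes and 1197 in differentiated cells. The fibroblast genes COL1A1, DCN and LUM were high in both stages, whereas DLK1, a defining preadipocyte marker, had a median of 0 in both. The endothelial marker CDH5, the leukocyte marker PTPRC and the kidney markers UMOD, CDH16, SLC12A1 and EPCAM also had medians of 0 in both stages. The leukocyte marker AIF1 had medians of 0 in preadipocytes and 0.41 in differentiated cells. CSF1R (1.04 and 0.39) and ITGAM (4.00 and 0.95) were low as well. Other genes of these lists had medians above 0. The macrophage markers CD68 and CD14 were detected in every library, with medians of 92.2 and 40.9 in preadipocytes and 63.2 and 113.7 in differentiated cells, and the kidney marker PAX8 had medians of 39.7 and 4.84. The endothelial markers TEK, KDR and VWF had medians between 2.17 and 11.6. PECAM1 had medians of 4.38 and 0.81 and reached 272 in a differentiated library. Of 5 mesothelial markers 3 were in the table. Their sum had medians of 30.7 in preadipocytes and 46.9 in differentiated cells and reached 1875 and 130, with KRT8 at up to 1217 in preadipocytes. The part of these genes in the results was not tested. The 5 smooth muscle and pericyte markers summed to between 6275 and 58530 in preadipocytes and between 636 and 15353 in differentiated cells, with ACTA2 and CNN1 above 0 in every library. RGS5 of this list was at 0 in 6 of the 16 libraries of each stage. In bulk RNA, fewer cells of a type and less RNA per cell cannot be told apart.

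Differentiation was accompanied by opposite changes in ACSL1 and ACSL5. Averaged over the 4 groups, ACSL1 was 10.9-fold higher and ACSL5 7.38-fold lower in differentiated cells, whereas ACSL3 and ACSL4 changed by less than the spread between libraries. ACSL5 fell in each of the 4 groups. ACSL1 passed the test in control males, and its log2 fold changes in the other 3 groups lay between 2.37 and 3.88.

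**Figure D1:**
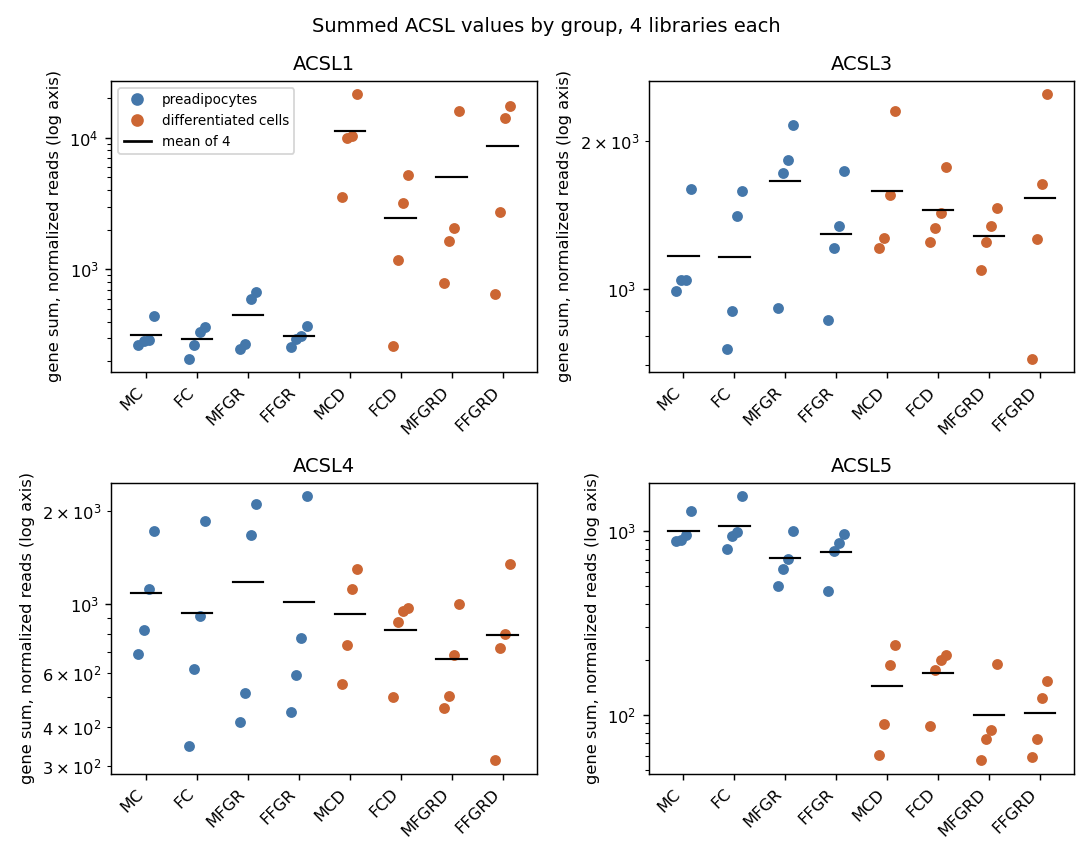
Gene sums of ACSL1, ACSL3, ACSL4 and ACSL5 in normalized reads (log axis) in the 8 groups; each point is a library, blue for preadipocytes and orange for differentiated cells, and the bar is the mean of 4. All 16 differentiated libraries lie below all preadipocyte libraries for ACSL5 (at most 240.2 against at least 472.6), and 14 of 16 lie above them for ACSL1.

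ACSL1 (ENSOARG00020013348) lies on chromosome 26 of Oar_rambouillet_v1.0, from 16058778 to 16132769. In control males its values were 264.4, 286.3, 290.2 and 440.6 in the MC libraries and 3561, 10249, 21380.2 and 9929.8 in the MCD libraries. All 4 MCD libraries lay above all MC libraries, as did those of 7.59% of the genes tested. ACSL1 rose by a log2 fold change of 4.90 (SE 0.48, 95% interval 3.83 to 5.96, adjusted p = 0.00087 by limma), in a comparison in which 7.53% of 11605 genes were called and 3.33% were called higher.

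In control females ACSL1 was at 268.3, 210.04, 335.1 and 368.3 in FC and at 3192, 1169, 5234 and 259.9 in FCD. FCD 1, 2 and 3 were above all FC libraries, and FCD 4 lay within their range. The log2 fold change was 2.37 (SE 0.81, adjusted p = 0.263 by limma), where 0.181% of genes were called higher. Leaving out 1 library gave 1.77 to 3.22 (adjusted p from 0.0680 to 0.591), the lowest without FCD 3 and the highest without FCD 4, and ACSL1 was called in none of these 8 fits. With library weights ACSL1 was called (2.91, adjusted p = 0.0289).

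In growth-restricted males ACSL1 was at 273.3, 594.1, 247.7 and 672.8 in MFGR and at 15818, 1637, 2048 and 781.6 in MFGRD. The groups did not overlap, as for 4.84% of genes in this direction, but MFGRD 1 was far above the other MFGRD libraries. The log2 fold change was 2.64 (SE 0.84, 95% interval 0.73 to 4.55, adjusted p = 0.155 by limma), where 1.22% of genes were called higher. It was 1.76 without MFGRD 1, 3.21 without MFGRD 4 and 1.57 without the libraries of steep span slope, and the adjusted p was above 0.1 in each of these. With library weights it was 1.70 (adjusted p = 0.0607).

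In growth-restricted females ACSL1 was at 314.3, 297.9, 372.8 and 259.1 in FFGR and at 14066, 2710.2, 17468 and 650.1 in FFGRD. Again the groups did not overlap (5.01% of genes in this direction), with FFGRD 1 and 3 high and FFGRD 4 closest to the preadipocytes. The log2 fold change was 3.88 (SE 0.96, 95% interval 1.70 to 6.07, adjusted p = 0.0775 by limma), where 0.914% of genes were called higher. Leaving out 1 library gave 3.24 to 4.82 (adjusted p from 0.0292 to 0.210), and of these 8 fits ACSL1 was called in 1, without FFGRD 4. It was 2.92 with library weights (adjusted p = 0.0481), 4.13 with the span slope as a covariate (adjusted p = 0.0214) and 3.88 in 1 fit of all 8 groups (adjusted p = 0.00496), each of them called. Without the libraries of steep span slope (here FFGR 2, FFGR 3 and FFGRD 3) it was 3.35 (adjusted p = 0.205 by limma), not called. That fit has fewer libraries, and 2 of its 10984 genes were called.

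Over all 32 libraries the mean of the 4 responses of ACSL1 was a log2 fold change of 3.45 (SE 0.44, 95% interval 2.54 to 4.36, adjusted p = 8.2e-07), and of the 12737 genes of this fit 27.2% were called, made up of 12.4% higher and 14.8% lower. ACSL1 stayed within a narrow band in preadipocytes, from 210.04 to 672.8, and ranged 82.3-fold in differentiated cells, from 259.9 in FCD 4 to 21380.2 in MCD 3. The order of the group means was MCD (11279.9 ± 7405, SD, n = 4), FFGRD (8724 ± 8294), MFGRD (5071 ± 7184), FCD (2464 ± 2217), MFGR (447 ± 218), MC (320.4 ± 81.0), FFGR (311 ± 47.2) and FC (295 ± 70.5), and the ranges of each pair of neighbours in this order overlapped.

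ACSL5 (ENSOARG00020017617, chromosome 22, 36055704 to 36112486) encodes a synthetase of mitochondrial and endoplasmic reticulum membranes, best known from intestine and liver. Its values in control males were 947.7, 1289, 895.1 and 879.5 in MC and 240.2, 186.5, 60.8 and 89.7 in MCD. In control females they were 1554, 795.0, 982.8 and 939.9 in FC and 199.2, 211.8, 175.4 and 87.4 in FCD. In both sexes the differentiated libraries were all below the preadipocyte libraries, as for 8.46% of genes in males and 5.15% in females.

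In growth-restricted males ACSL5 was at 1008, 709.1, 504.1 and 623.2 in MFGR and at 188.8, 82.2, 56.5 and 74.1 in MFGRD. In growth-restricted females it was at 472.6, 781.4, 966.8 and 862.5 in FFGR and at 59.3, 73.9, 152.5 and 124.1 in FFGRD. Neither pair of groups overlapped, as for 6.31% of genes in males and 6.3% in females in this direction. Over the stages as a whole, all 16 differentiated libraries were below all 16 preadipocyte libraries for ACSL5, which held for 0.652% of 12737 genes.

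The log2 fold change of ACSL5 was -2.97 in MCD against MC (SE 0.42, adjusted p = 0.0044), where 4.21% of genes were called lower. It was -2.69 in FCD against FC (SE 0.36, adjusted p = 0.0207), where 0.43% of 11634 genes were called in either direction and 0.249% were called lower. In MFGRD against MFGR it was -2.92 (SE 0.41, adjusted p = 0.0088), with 3.38% of 11624 genes called and 2.16% called lower. In FFGRD against FFGR it was -2.95 (SE 0.40, adjusted p = 0.0141), with 2.67% of 11599 genes called and 1.76% called lower. The 4 responses lay within 0.29 of each other on the log2 scale, and their mean was -2.88 (SE 0.20, 95% interval -3.30 to -2.46, adjusted p = 7.3e-11), the ninth smallest p-value of the fit.

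The calls of ACSL5 in females depended on single libraries, although its fold change did not. In FCD against FC the adjusted p was above 0.05 without FC 1 (0.0651), FC 3 (0.0878), FC 4 (0.0843), FCD 1 (0.109) or FCD 3 (0.116). In FFGRD against FFGR it was above 0.05 without FFGR 2 (0.0524), FFGR 3 (0.0744), FFGR 4 (0.0518) or FFGRD 2 (0.0753), and without the libraries of steep span slope (0.0725). In all fits that left out 1 library its log2 fold change lay between -2.82 and -2.40 in FCD against FC and between -3.17 and -2.72 in FFGRD against FFGR. In males ACSL5 was called in each fit that left out 1 library.

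The order of the ACSL5 group means was FC (1068 ± 334, SD, n = 4), MC (1003 ± 193), FFGR (771 ± 213), MFGR (711 ± 215), FCD (168 ± 56.1), MCD (144 ± 83.5), FFGRD (102 ± 43.4) and MFGRD (100.4 ± 59.9). Only MFGR and FCD, the neighbours on either side of differentiation, did not overlap in range. The summed smooth muscle and pericyte markers were lower after differentiation as well (medians 14248 and 3565), with overlapping ranges. ACTA2 had the highest values of this list (medians 11848 and 3000), whereas RGS5 was near 0 and did not fall (medians 0.94 and 1.31). The part of these markers in the result for ACSL5 was not tested.

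ACSL3 (ENSOARG00020018516, chromosome 2, 240003395 to 240072232) encodes a synthetase of the endoplasmic reticulum and of forming lipid droplets. It lay between 755.1 and 2154 in preadipocytes and between 720.7 and 2485 in differentiated cells, so the stages overlapped almost entirely. Its log2 fold change was 0.42 in MCD against MC, 0.37 in FCD against FC, -0.30 in MFGRD against MFGR and 0.15 in FFGRD against FFGR. None was called (lowest adjusted p 0.386), and the mean of the 4 responses was 0.16 (95% interval -0.18 to 0.49, adjusted p = 0.508).

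ACSL4 (ENSOARG00020016580, chromosome X, 134035781 to 134078055) encodes a synthetase that prefers arachidonate and other highly unsaturated fatty acids, and it is known for a role in ferroptosis. It lay between 347.7 and 2239 in preadipocytes and between 311.9 and 1351 in differentiated cells, again with nearly complete overlap. The log2 fold changes lay between -0.56 in MFGRD against MFGR and 0.03 in FCD against FC, and none was called (lowest adjusted p 0.737). The mean of the 4 responses was -0.24 (95% interval -0.81 to 0.33, adjusted p = 0.560). For both genes the highest group mean was that of MFGR (1652 ± 527 for ACSL3 and 1179 ± 846 for ACSL4, SD, n = 4), and each group's range overlapped that of its neighbour in the order of means.

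ACSL3 and ACSL4 tended to be lower in libraries of steep span slope, with exceptions. MCD 2 (2296 for ACSL3 and 1303 for ACSL4) lay above the medians of the differentiated libraries (1333 and 770.6). FCD 2 did so for ACSL4 (973.5). Among the preadipocyte libraries FFGR 3 lay above the median for ACSL3 (1343 against 1276). Over the 16 preadipocyte libraries the correlation with the span slope was r = 0.61 for ACSL3 and r = 0.66 for ACSL4, and over the 16 differentiated libraries it was 0.51 and 0.43, given as descriptions of libraries that share a preparation and a normalization. For ACSL1 it was 0.21 and -0.46, and for ACSL5 -0.037 and -0.34. The Spearman rank correlation was 0.55 and 0.63 for ACSL3 and 0.62 and 0.29 for ACSL4, in preadipocytes and differentiated cells. The part of the span slope in the spread of ACSL3 and ACSL4 was not tested directly. Neither gene was called in the fits with the span slope as a covariate or in those without the libraries of steep span slope.

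**Figure D2:**
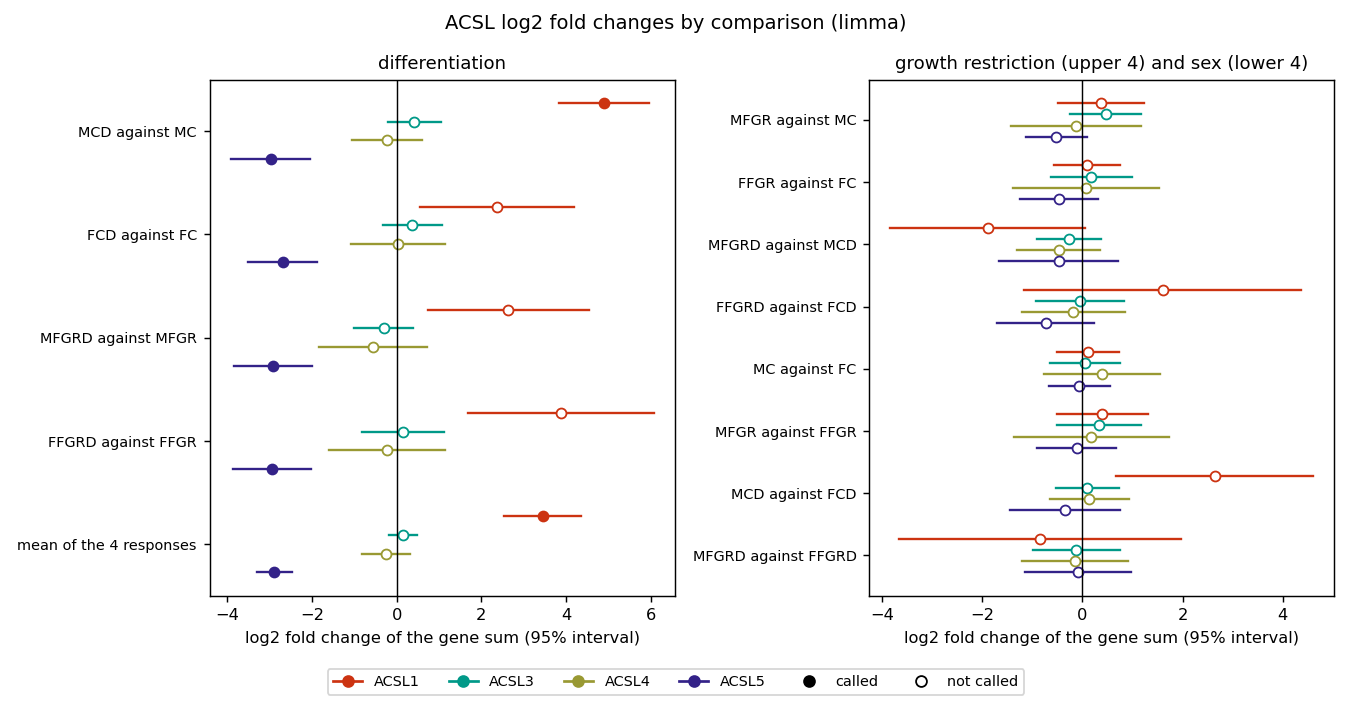
Log2 fold changes of the 4 gene sums with 95% intervals from limma, for the differentiation comparisons on the left and the growth restriction and sex comparisons on the right; filled points were called. ACSL5 lies between -2.97 and -2.69 in all 4 groups and ACSL1 between 2.37 and 4.90 on the left, whereas no point is filled on the right.

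The balance within the family differed between the stages. ACSL1 held 9.86% ± 3.23 (SD, n = 16) of the summed value of the 4 genes in preadipocytes and 58.0% ± 25.9 (n = 16) in differentiated cells, and ACSL5 held 26.1% ± 8.47 and 2.24% ± 1.64. The shares of ACSL3 were 36.7% ± 7.00 and 25.8% ± 16.3, and those of ACSL4 were 27.4% ± 11.0 and 13.97% ± 9.40. The values are not divided by transcript length, so the shares are read only as a change between stages and not as an order of the genes.

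The ACSL1 share was 9.40% ± 3.40 in MC and 76.4% ± 13.8 in MCD (SD, n = 4). In females it was 9.11% ± 2.58 in FC and 41.1% ± 24.3 in FCD. In growth-restricted fetuses it was 11.3% ± 4.76 in MFGR and 52.4% ± 27.1 in MFGRD, and 9.60% ± 2.73 in FFGR and 61.9% ± 31.0 in FFGRD. In each comparison all 4 differentiated libraries were above all 4 preadipocyte libraries (exact permutation test, two-sided, p = 0.0286 in each, the smallest p that 70 splits allow, adjusted p = 0.0286 over 4 comparisons). In FCD 4 the share was 11.96%, against at most 10.7% in FC, although its ACSL1 value (259.9) lay within the FC range. A higher share can come from lower values of the other members, so it does not show a rise of ACSL1. In FCD against FC, MFGRD against MFGR and FFGRD against FFGR leaving out preadipocyte replicate 1, 2, 3 or 4 left 35 splits. The exact permutation p was then 0.0571, although the groups stayed fully separated. Leaving out an MC library in MCD against MC, or any differentiated library, also left 35 splits and gave 0.0286 by this test. The number of splits alone thus does not set the p of 0.0571. Without 1 preadipocyte library the differences in FCD against FC, MFGRD against MFGR and FFGRD against FFGR were 30.8 to 32.6, 39.3 to 43.1 and 51.5 to 53.3 percentage points.

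The ratio of ACSL1 to ACSL5 separated the stages completely. ACSL5 alone did so as well, so the ratio is a description and adds no separate evidence. The ratio ranged from 0.173 in FC 1 to 1.08 in MFGR 4 in preadipocytes (median 0.361) and from 2.97 in FCD 4 to 352 in MCD 3 in differentiated cells (median 33.0). FCD 4, whose ACSL1 value was within the preadipocyte range, was thus set apart from the preadipocytes by ACSL5 (87.4).

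**Figure D3:**
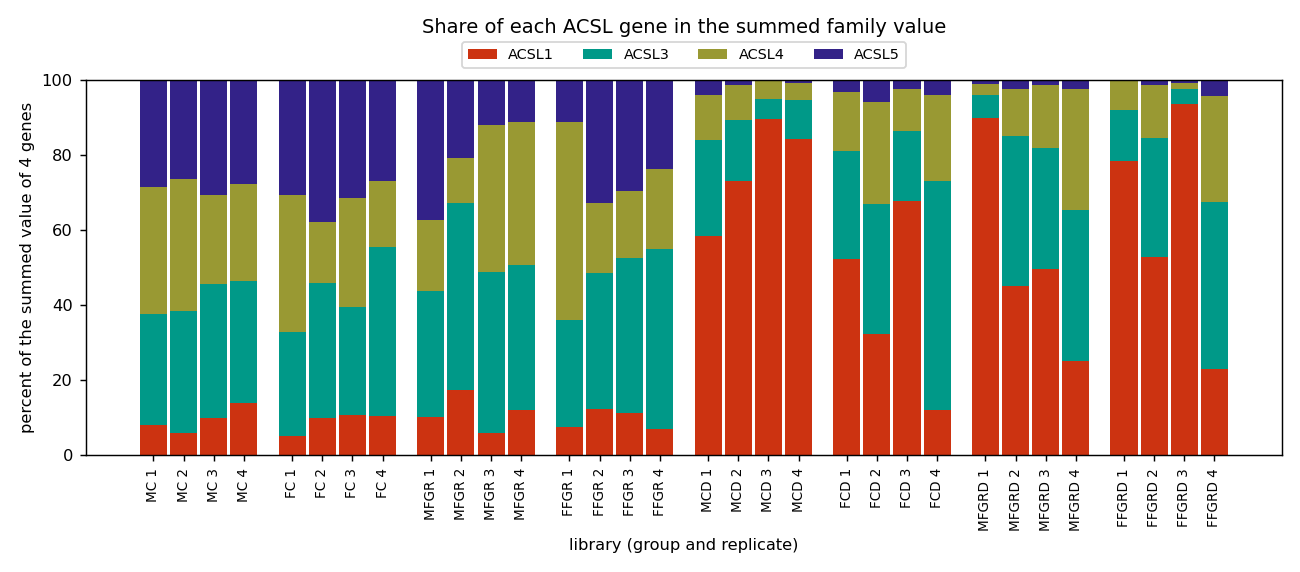
Percent of the summed value of ACSL1, ACSL3, ACSL4 and ACSL5 held by each gene in the 32 libraries (stacked bars to 100%, values not divided by transcript length). ACSL1 takes 5.27% to 17.3% in preadipocytes and 11.96% to 93.6% in differentiated cells, where ACSL5 takes at most 5.88%.

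Among the differentiated libraries ACSL1 varied with the adipocyte genes. Over the 16 libraries the correlation of log2 values was r = 0.98 with PLIN1, which coats lipid droplets, 0.98 with ADIPOQ, 0.95 with the transcription factor CEBPA, 0.92 with the fatty acid binding protein FABP4 and 0.91 with PPARG. These libraries share 1 normalization, and 4 groups are pooled in them, so the correlations are descriptions. FCD 4 was the lowest of the 16 for ACSL1 (259.9), PLIN1 (19.0) and ADIPOQ (8.59). Over the 16 preadipocyte libraries r was 0.58 with PLIN1 and 0.11 with ADIPOQ.

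ACSL5 did not follow this gradient. Its correlation over the 16 differentiated libraries was 0.09 with PLIN1, 0.08 with ADIPOQ and 0.08 with ACSL1. ACSL3 and ACSL4 were likewise near 0 with PLIN1 (0.035 and 0.089), and with each other their r was 0.73. All 16 differentiated libraries were thus low in ACSL5, including FCD 4, FFGRD 4 and MFGRD 4, which had the lowest ACSL1 values of the differentiated cells.

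**Figure D4:**
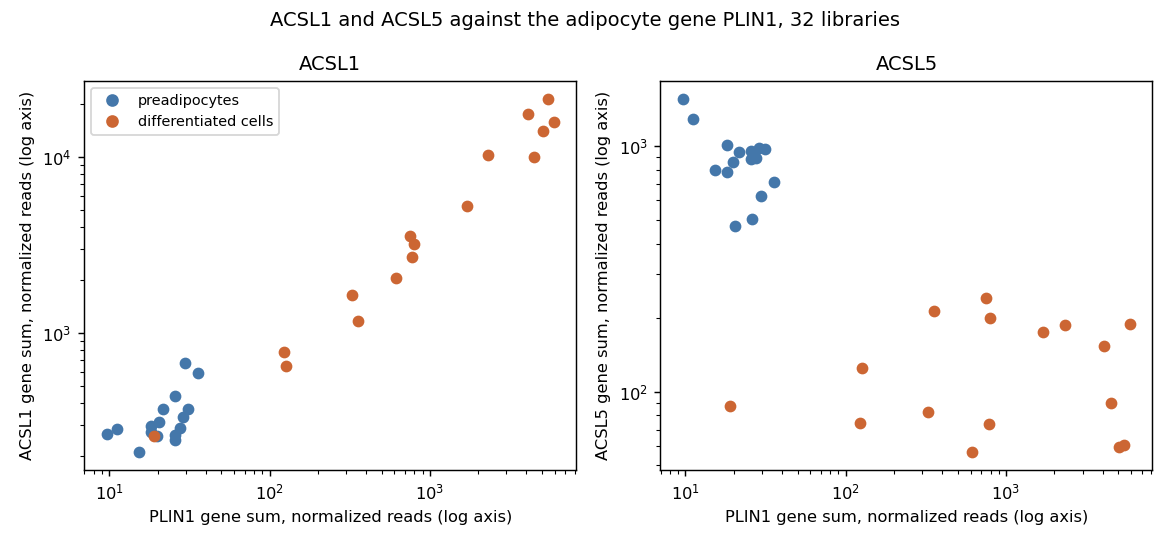
ACSL1 (left) and ACSL5 (right) against PLIN1 in 32 libraries, as gene sums in normalized reads on log axes; blue points are preadipocytes and orange points differentiated cells. ACSL1 rises with PLIN1 across the differentiated libraries (r = 0.98, n = 16), whereas ACSL5 does not (r = 0.09), and 1 differentiated library, FCD 4, lies among the preadipocytes on the left only.

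Of 9706 named genes compared over the differentiated libraries, those with the pattern most like ACSL1 were ELOVL6, which lengthens saturated fatty acids (r = 0.99), PLIN1 (0.98), ACSS2, which makes acetyl-CoA from acetate (0.98), PPP1R1B (0.98) and ADIPOQ (0.98). In preadipocytes, over 9788 genes, they were MMP14 (0.85), IDH1 (0.83), FHOD3 (0.81), GPNMB (0.81) and the lysosomal lipase LIPA (0.81). The genes most like ACSL1 in differentiated cells correlated with the span slope of the library between -0.55 (ACSS2) and -0.41 (ELOVL6). The part of the span slope in the likeness was not tested. No gene came as close to ACSL5. The highest were DES (0.74), KCNK12 (0.74), FAAH, a hydrolase of fatty acid amides (0.72), FZD3 (0.72) and TMEM200B (0.70) in differentiated cells. In preadipocytes they were DNAAF5 (0.71), TMEM17 (0.70), DUSP1 (0.69), KCNS3 (0.67) and HYKK (0.66).

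The transcripts of ACSL1 and ACSL5 behaved like the gene sums. In the fit over 32 libraries 6 of the 9 family transcripts tested were called, against 19.8% of 19469 transcripts. ACSL1-202, ACSL1-203, ACSL1-204 and ACSL1-205 rose by log2 fold changes of 4.62, 4.03, 3.61 and 4.02, with adjusted p-values between 2.4e-05 and 0.00012. ACSL5-201 and ACSL5-202 had log2 fold changes of -3.15 (adjusted p = 1.9e-06) and -2.99 (adjusted p = 3.2e-06) and fell. For ACSL5-204 the value was -2.20 with an adjusted p of 0.142, and the transcript was above 0 in 6 of 16 preadipocyte and 2 of 16 differentiated libraries. ACSL1-201 and ACSL5-203 were above 0 in 1 library each and were not tested.

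Between single groups the transcript calls were fewer. In MCD against MC 4 of 8 were called (2.83% of all transcripts), namely ACSL1-204 and ACSL1-205, which rose, and ACSL5-201 and ACSL5-202, which fell. The count was 2 without MC 1, MC 2, MC 4 or MCD 2, 1 without MCD 3 or MCD 4, and 0 without the libraries of steep span slope. The last fit lacks both MCD 2 and MCD 4 and so has fewer libraries. In FCD against FC (0.143% of transcripts called) and in MFGRD against MFGR (1.32%) the 1 call was ACSL5-201. It was lost without FC 1, 3 or 4 or any of the 4 FCD libraries in the former, and without any of the 4 MFGR libraries or MFGRD 2, 3 or 4 in the latter. In FCD against FC the count was also 0 with the replicate block, with a pseudocount of 0.1, with no filter and in 1 fit of all 8 groups, and it was 2 with library weights. In FFGRD against FFGR 0 of 8 were called by limma (0.616% of transcripts), and 6 of the 8 were below 0.05 before adjustment, as were 2023 of all 15914 transcripts. There the count was 2 with the span slope as a covariate, 1 with library weights and 4 in 1 fit of all 8 groups.

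The mean make-up of ACSL1 and ACSL5 by transcript was similar before and after differentiation, but it varied widely between libraries. In preadipocytes ACSL1-203 held from 0% to 89.1% of the ACSL1 sum. ACSL5-204 reached 73.3% of the ACSL5 sum in a differentiated library. ACSL1-205 held 40.7% ± 16.6 (SD, n = 16) of the ACSL1 sum in preadipocytes and 45.3% ± 5.56 in differentiated cells. ACSL1-204 held 30.3% ± 14.1 and 26.5% ± 5.10, and ACSL1-203 held 27.8% ± 20.5 and 25.8% ± 7.04. For ACSL5, ACSL5-201 held 56.6% ± 8.06 and 55.7% ± 19.3, and ACSL5-202 held 34.9% ± 7.39 and 37.2% ± 15.3. ACSL1-202, ACSL1-203 and ACSL1-204 share 1 start and 1 end (16089894 to 16132769), so reads could be split between them, and their separate values are uncertain. ACSL1-205 has the same start, and ACSL5-201 and ACSL5-202 have the same end, so this applies to them as well.

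**Figure D5:**
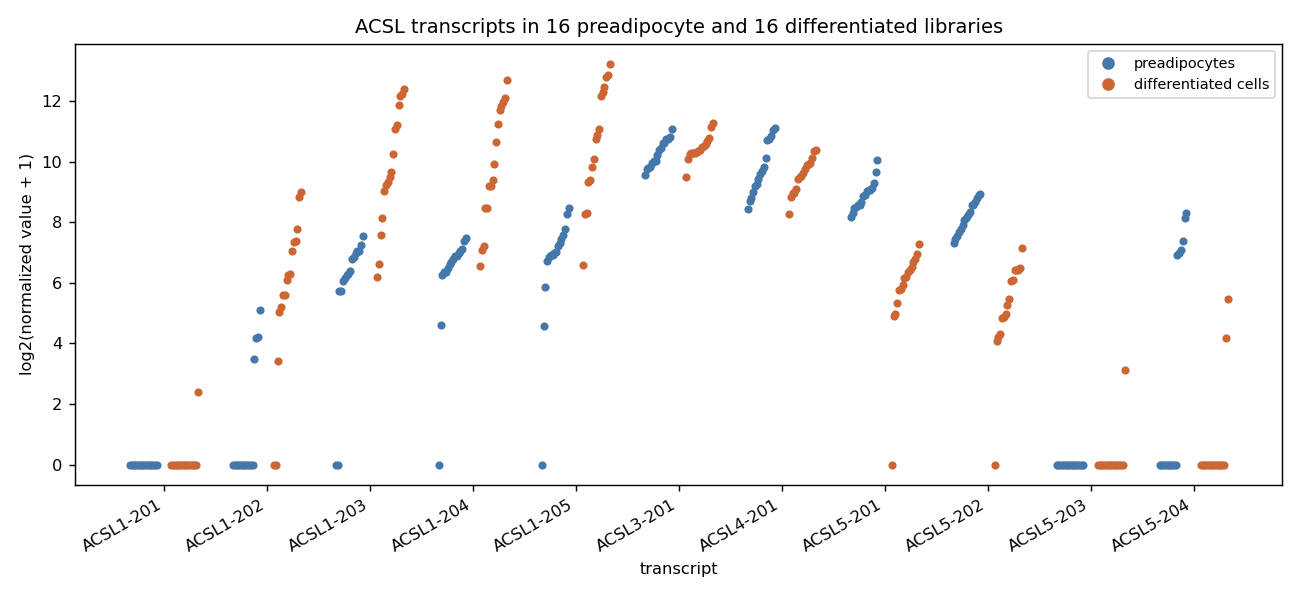
log2(normalized value + 1) of the 11 family transcripts in 16 preadipocyte (blue) and 16 differentiated (orange) libraries, sorted within each stage. ACSL1-202 to ACSL1-205 lie higher and ACSL5-201 and ACSL5-202 lower after differentiation, while ACSL3-201 and ACSL4-201 overlap between the stages.

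The effect of growth restriction was compared within each sex and stage. None of the 4 genes was called by limma in any of these 4 comparisons, in which 0% of genes were called and between 87 and 183 genes were below 0.05 before adjustment. Of the 16 values of the family 0 were below 0.05 before adjustment. The log2 differences of ACSL5 were -0.52 in MFGR against MC, -0.47 in FFGR against FC, -0.47 in MFGRD against MCD and -0.73 in FFGRD against FCD, and the groups overlapped in each. The share of all genes with 1 direction in all 4 is not given, so the shared sign of ACSL5 is not read as a result. With both sexes in 1 fit the difference in preadipocytes was -0.50 (95% interval -0.92 to -0.072, adjusted p = 0.812 by limma), and in differentiated cells it was -0.60 (95% interval -1.33 to 0.12, adjusted p = 1.00). None of the 4 genes was called in these fits (0% of genes called), and ACSL5 in preadipocytes was the 1 value below 0.05 before adjustment.

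ACSL1 differed in opposite directions in the differentiated cells of the sexes. It was lower in MFGRD than in MCD (log2 difference -1.89, 95% interval -3.83 to 0.06, adjusted p = 1.00 by limma) and higher in FFGRD than in FCD (1.60, 95% interval -1.16 to 4.37, adjusted p = 1.00). In each case the groups overlapped, and the intervals are too wide to place the size of the difference. The first value was -2.77 without MFGRD 1 and -1.32 without MFGRD 4, and the second was 0.76 without FCD 4, 1.06 without FFGRD 1, 0.96 without FFGRD 3, 2.54 without FFGRD 4 and -0.043 with library weights. In preadipocytes the log2 differences of ACSL1 were 0.37 in MFGR against MC and 0.09 in FFGR against FC. For ACSL3 and ACSL4 the 4 comparisons gave log2 differences between -0.26 and 0.46 and between -0.47 and 0.08.

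Between the sexes, 0 of the 16 family values was called by limma, again with 0% of genes called (37 to 445 genes were below 0.05 before adjustment). The 1 family value below 0.05 before adjustment was ACSL1 in MCD against FCD, with a log2 difference of 2.64 (95% interval 0.67 to 4.61, adjusted p = 0.873 by limma). MCD 2, 3 and 4 were above all FCD libraries. Without FCD 4 the difference was 1.80 (adjusted p = 0.974). ACSL4, which is on chromosome X, had log2 differences between males and females of -0.15 to 0.39, ACSL3 of -0.12 to 0.33 and ACSL5 of -0.35 to -0.061. The growth restriction and sex comparisons share libraries, so their values are not independent of each other.

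The differences in response to differentiation were tested as interaction terms over 16 libraries each. No gene of the family was called by limma (0% of genes called in each of the 4 tests, with 40 to 211 genes below 0.05 before adjustment). Of the 16 values 2 were below 0.05 before adjustment, both for ACSL1. Its response was larger in MC than in FC by 2.52 (95% interval 0.38 to 4.67, adjusted p = 0.885 by limma) and smaller in MFGR than in MC by a log2 difference of -2.26 (95% interval -4.45 to -0.06, adjusted p = 0.966). The first was 1.68 without FCD 4, and the second was -3.14 without MFGRD 1, -1.69 without MFGRD 4 and -3.61 with library weights, none of them called. For ACSL5 the differences in response lay between -0.29 and 0.05, with 95% intervals that spanned -1.50 to 1.34. These tests share libraries as well.

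The genes around the family were counted in lists of 18 other acyl-CoA synthetases, 12 thioesterases, 6 acyl-CoA binding proteins, 16 genes of glycerolipid synthesis, 15 of fatty acid oxidation, 10 of fatty acid supply, 12 partners in arachidonate and phospholipid remodelling and 11 lipid transcription factors. Unless a single comparison is named, counts are from the fit over 32 libraries, in which the median log2 fold change of all genes was 0.03 and 27.2% of all genes were called. A call in this mean does not show a change in each group. In FCD against FC, where 0.43% of all genes were called, fatty acid supply was the only list with a called gene (1 of 9).

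Of the other acyl-CoA synthetases 13 were tested, 7 rose and 0 fell, with a median log2 fold change of 0.61. Without the libraries of steep span slope 6 rose. Within single groups 4 of 11 rose in MCD against MC (3.33% of all genes) and 2 of 11 in FFGRD against FFGR (0.914%). In FCD against FC 0 of 9 rose (0.181% of all genes), and in MFGRD against MFGR 0 of 11 (1.22%). The fatty acid transporter and synthetase SLC27A3 rose by 2.79 on the log2 scale, its relative SLC27A4 by 1.14, and ACSS2 by 2.81. AACS, which activates acetoacetate, rose by 0.61. SLC27A6 rose from 0.198 ± 0.357 (SD, n = 16) to 56.3 ± 62.0, and the medium-chain synthetases ACSM1 and ACSM3 rose from 0.971 ± 3.14 and 1.46 ± 2.81 to 212 ± 446 and 176 ± 263. The 6 that did not pass by limma included SLC27A1 (-0.44, adjusted p = 0.0677), ACSF2 (-0.33, adjusted p = 0.467) and ACSS3 (-1.23, adjusted p = 0.133). The others were ACSF3 (-0.29, adjusted p = 0.346), SLC27A2 (0.60, adjusted p = 0.237) and ACSS1 (0.43, adjusted p = 0.103).

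Fatty acid supply had the highest median of the 8 lists, 2.70, with 7 of 9 genes higher and 1 lower. The fatty acid translocase CD36 rose by 6.72 and FABP4 by 9.55 on the log2 scale. The lipases PNPLA2 and LIPE rose by 2.48 and 5.12, and the synthesis enzymes FASN and SCD by 1.68 and 2.77. FABP3 was the gene that fell, by 3.15 on the log2 scale. Its mean was 396 ± 440 (SD, n = 16) in preadipocytes and 37.0 ± 39.5 in differentiated cells.

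In glycerolipid synthesis, which uses the acyl-CoA that the family makes, 5 of 12 genes rose and 0 fell (median 0.31). The first-step acyltransferases GPAM and GPAT3 rose by 2.82 and 3.61 on the log2 scale and the phosphatidate phosphatase LPIN1 by 2.42. MOGAT1 rose from 4.30 ± 3.62 to 188 ± 223 and DGAT2, which makes triglyceride, from 1.41 ± 1.92 to 953 ± 1292. GPAT4 (0.11) and AGPAT1 (0.00083) were among the 7 that did not pass.

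In fatty acid oxidation 4 of 14 genes rose and 2 fell (median 0.36). CPT1A, which passes long-chain acyl groups from acyl-CoA to carnitine at the outer mitochondrial membrane, rose by 1.43 on the log2 scale, HADHB by 1.14 and ACADVL by 0.60. The peroxisomal transporter ABCD2 rose from 0.648 ± 0.886 to 54.9 ± 41.2. CPT1B and ACADL fell by 0.75 and 0.59.

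Of the thioesterases, which split acyl-CoA again, 1 of 3 tested rose (THEM4, 1.53), and of the acyl-CoA binding proteins 0 of 4 were called, with 2 of them at an adjusted p below 0.05 and a fold change under 1.5 (ACBD3, -0.47, and ACBD6, -0.52). Among the partners of ACSL4 in arachidonate and phospholipid remodelling 1 of 9 rose, the acyltransferase LPCAT3 (1.26, adjusted p = 0.0044), and 1 fell, ALOX12 (67.4 ± 113 to 3.36 ± 4.36). The value of GPX4, which removes lipid peroxides, was 0.11 on the log2 scale (adjusted p = 0.854). Of 10 lipid transcription factors 5 rose and 0 fell, including CEBPA (4.02), MLXIPL (1.13 ± 1.65 to 27.5 ± 34.8), PPARG (2.26) and RXRA (1.09), while PPARA (-0.14) and SREBF2 (0.14) did not pass.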

How the data were processed

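The authors discarded reads of low average quality, used Salmon with the Ensembl transcripts of Oar_rambouillet_v1.0 for quantification, and normalized with DESeq2 over the 32 libraries. The deposited signal is this normalized read value per transcript and library. It is not a whole number of reads, so the count test that the design held in reserve was not used. Columns of the authors' own fold changes and p-values were not used. The labels describe extraction from adipose tissue, and the study's methods from thawed cell pellets.

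Transcripts were summed per gene. Sums and transcripts that reached 10 in 4 or more libraries of a fit were tested with limma 3.58.1 (R 4.3.3, empirical Bayes trend) on log2(value + 1), each comparison on its own 8 libraries and the mean of the 4 responses on all 32. ACSL1 shares were compared by exact permutation. The scripts were tested on simulated data. Approximate reads are the summed values divided by the spacing of the lowest values, and the span slope is the slope of a library's log2 values on the log genomic span of the transcript.

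A rule set in the design named all family transcripts, the tested acyl-CoA synthetases and the 5 genes most like ACSL1 and ACSL5. From each of the 8 pathway lists it named the called genes with the largest rises and falls. Other list genes, and the genes most like ACSL3 and ACSL4, were picked from the results beyond this rule. The members and lists were chosen with earlier results of these data known. Replicate numbers were taken from the labels as a possible pairing. The deviations of same-numbered libraries correlated above 0.1 in all 4 pairs in MCD against MC (lowest r 0.16), FCD against FC (0.30) and MFGRD against MFGR (0.39), and not in FFGRD against FFGR (-0.40). No library shared identical values with another. The alternatives were quantile normalization, a pseudocount of 0.1, no filter, a stricter filter (20 CPM in 3 libraries), the span slope as a covariate, library weights, a replicate block, 1 fit of all 8 groups and leaving out each library.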

Additional observations from a re-analysis of the deposited data

Results flagged for a closer look

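In 3 of 40 groups of 4 libraries tested (the 4 gene sums and the ACSL1 share in 8 groups), 1 library stood apart from the other 3 by more of the group's range than Dixon's test allows at the 5% level. Chance sets 1 library apart in this way in about 1 in 20 groups. ACSL3 in MC 2, at 1594 against 989.3 to 1042 in the other MC libraries, had a gap of 0.891 of the range. ACSL4 in FCD 4, at 498.8 against 872.7 to 973.5, had a gap of 0.837. The gaps of these gene sums were taken on log2(value + 1), not on the values printed. For ACSL4 the gap on the printed values is smaller. The gap of the share was taken on the percent. The ACSL1 share in FC 1, at 5.27% against 9.96% to 10.7%, had a gap of 0.865.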

How the results depend on the processing

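ACSL5 in MCD against MC and MFGRD against MFGR, ACSL1 in MCD against MC, and both genes in the mean of the 4 responses kept their direction and their call under all alternatives run. The number of the 4 genes called in FCD against FC, 1 as reported, was 2 with library weights and 0 to 1 when 1 library was left out. In FFGRD against FFGR, 1 as reported, it was 2 with the span slope as a covariate, 2 with library weights, 2 in 1 fit of all 8 groups, 0 without the libraries of steep span slope (a setting chosen after seeing the data) and 0 to 2 when 1 library was left out. The cause was not tested. The replicate block changed no call of a family gene (ACSL5 in FCD against FC, adjusted p = 0.0299), while the number of all genes called with it moved from 874 to 1854 in MCD against MC, from 50 to 197 in FCD against FC and from 393 to 2081 in MFGRD against MFGR, and fell from 310 to 182 in FFGRD against FFGR, where the numbers do not pair the libraries. Over the alternatives that number ranged from 195 to 2052, 11 to 1504, 127 to 2081 and, in FFGRD against FFGR, 2 to 4138, and in the mean of the 4 responses (3466) from 1721 to 4173. Most of the values that changed sign were near 0. With the span slope as a covariate ACSL4 in FCD against FC was -0.025, ACSL3 in FFGRD against FFGR -0.028, ACSL5 in MFGR against FFGR 0.011 and its difference in response between these -0.16 (-0.025 with quantile normalization). With library weights ACSL4 in FFGRD against FFGR was 0.19, and ACSL1 was -0.079 in FFGR against FC and -0.24 in MC against FC. ACSL1 in FFGRD against FCD, 1.60 in the main fit and so not near 0, was -0.043 with library weights. Without the libraries of steep span slope ACSL4 in FCD against FC was -0.45. Leaving out 1 library, ACSL4 ranged from -0.41 to 0.030 in MCD against MC, -0.35 to 0.45 in FCD against FC and -0.54 to 0.25 in FFGRD against FFGR, and ACSL3 from -0.13 to 0.46 in FFGRD against FFGR. ACSL1 ranged from -0.058 to 0.21 in FFGR against FC, -0.044 to 0.24 in MC against FC and -0.66 to 0.25 for growth restriction in differentiated cells of both sexes. ACSL5 ranged from -0.19 to 0.13 in MC against FC, -0.33 to 0.036 in MFGR against FFGR and -0.44 to 0.14 in MFGRD against FFGRD, and its difference in response from -0.30 to 0.36 (MFGR against MC), -0.60 to 0.057 (MC against FC) and -0.33 to 0.25 (MFGR against FFGR). The ACSL1 share differed by 23.1 to 41.8 percentage points in FCD against FC, 28.6 to 50.2 in MFGRD against MFGR and 41.7 to 65.3 in FFGRD against FFGR. The difference in response of ACSL1 ranged from 1.68 to 3.12 (MC against FC) and -3.14 to -1.69 (MFGR against MC). A value of 3 reads was worth 2.09 to 5.36 normalized reads, which limits ACSL1-201, ACSL1-202, ACSL5-203 and ACSL5-204.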

Other observations

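The genes most like ACSL3 and ACSL4 were other than those most like ACSL1. Over the 16 differentiated libraries they were SAV1 (r = 0.93), RNF10 (0.88) and YTHDF3 (0.88) for ACSL3 and TRIM35 (0.92), YTHDF3 (0.89) and CHUK (0.89) for ACSL4. In the 16 preadipocyte libraries they were RAI14 (0.87) and TRMT6 (0.86) for ACSL3, and TRAPPC13 (0.94), LIF (0.91) and IRAK3 (0.91) for ACSL4. The libraries share 1 normalization. The correlation of these genes with the span slope of the library was between 0.46 and 0.83, and its part in the likeness was not tested.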
